A study of Caenorhabditis elegans with 39 samples.

Results

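Of the 21 starved libraries from control and short-term dauer descendants, 3 had almost no transcript of acs-2, the gene for an acyl-CoA synthetase that is a standard marker of fasting in Caenorhabditis elegans. They are control LC6 of batch 1 and control 14 and short-term dauer 14 of batch 2, and the series holds 39 libraries in all. These libraries were chosen by a measured value, a level of F28F8.2 (acs-2) below 50 CPM (counts scaled to a common library size with TMM factors), so their differences from the other 18 starved libraries are given here as a description, with no test. The 3 libraries had 3.08 CPM (control 14), 5.51 CPM (control LC6) and 6.41 CPM (short-term dauer 14) of acs-2. The lowest of the 18 other control and short-term dauer starved libraries was control 2 of batch 2, at 464.3 CPM, so none of them lay near the threshold.

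All libraries came from first-stage (L1) larvae of the wild-type strain N2, collected in generation F3. Their ancestors had been kept as embryos in control liquid culture or had passed through a short-term or a long-term dauer, the arrested larval form that the worm adopts under crowding, and had then been recovered and fed. The F3 larvae were either fed for 18 h and washed repeatedly to remove bacteria, or starved for 24 h and washed little or not at all, so feeding, hours and washing cannot be told apart. The 9 other starved libraries of each batch served as the reference within that batch, and all 11 fed libraries (4 control, 4 short-term dauer and 3 long-term dauer) belonged to batch 1. The series' design text calls the replicates biological but does not say which of them shared a culture set-up.

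A larva that hatches without food arrests as an L1 and lives on its stores. In this state the nuclear receptor NHR-49 is known to raise genes of fatty acid oxidation, acs-2 among them, and the glyoxylate shunt enzyme encoded by icl-1 lets the worm make carbohydrate from fat. The forkhead factor DAF-16, freed when insulin signalling is low, is known to raise stress genes such as sod-3, mtl-1 and hsp-12.6.

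Library depth was 20950821 to 30313127 gene counts in batch 1 and 8836723 to 13740490 in batch 2, and the 3 low acs-2 libraries held 24480714 (control LC6), 10329888 (control 14) and 9351453 (short-term dauer 14). Their shares of reads listed as not aligned, 17.5% to 18.0%, and as outside genes, 3.32% to 4.58%, lay inside or next to those of the other starved libraries. One reference library stood apart. Short-term dauer LC14 of batch 1 had 13% of its reads outside genes, against at most 4.74% in every other library. Its CPM values were low in most genes, so it set the bottom of many batch 1 ranges. It also had the most genes detected, 33444 against at most 28367 elsewhere. In some weakly expressed genes, such as asm-3 (4.78 CPM) and tre-5 (6.97 CPM), it set the top of the batch 1 range. Total counts without it are given below, but the ranges of single genes and the counts of gene lists include it.

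A gene was called outside the range when control LC6 lay beyond all 9 other starved libraries of batch 1, both libraries numbered 14 lay beyond all 9 of batch 2 on the same side, and the log2 fold change from edgeR, with batch as a term, was at least 1 in size. Of 17282 genes measured, 530 (3.07%) were below the range and 321 (1.86%) above it. Without short-term dauer LC14 the counts were 509 and 384. The median log2 fold change over all measured genes was -0.07.

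The label under which these libraries were grouped, a missing fasting programme, held for only some of its genes. Icl-1, hacd-1 and fmo-2 were low, while hsp-12.6, sod-3 and mtl-1, DAF-16 targets that starvation also raises, were above the range of the other starved larvae, and most genes of either kind were not outside it. The libraries are therefore called by the rule, the low acs-2 libraries. Their genes are described below by role, first the fasting markers and the lists they belong to, then amino acid, vitamin and lipid metabolism, then the genes above the range.

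Acs-2 itself was 815 CPM at the lowest, 1298 at the median and 1714 at the highest in the other starved libraries of batch 1, and 464.3, 1242 and 1702 CPM in those of batch 2. The 11 fed libraries lay between 19.8 and 81.0 CPM, with a median of 22.4, so the low acs-2 libraries were below even the fed larvae. The log2 fold change was -7.995 against the other starved libraries, with -8.01 in batch 1 and -7.92 in batch 2.

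The uncharacterised gene T22F3.11 had 6.58, 4.42 and 5.85 CPM in control LC6, control 14 and short-term dauer 14, against 599.7 to 1668 CPM in the 18 others and 4.33 to 10.76 CPM in fed larvae, a log2 fold change of -7.68. Hacd-1, predicted to encode a hydroxyacyl-CoA dehydrogenase of fatty acid oxidation, had 4.39, 4.33 and 4.83 CPM against 127.5 to 482.2 CPM, a log2 fold change of -6.33. Fed larvae had 24.9 to 67.3 CPM of hacd-1, so here too the low acs-2 libraries lay below them. The flavin monooxygenase gene fmo-2, which is known to be induced by fasting through HLH-30 and NHR-49, had 1.33, 1.35 and 1.39 CPM. Its other starved libraries ranged from 4.01 to 85.8 CPM, and the lowest of them was control 13 of batch 2.

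Isocitrate lyase and malate synthase, both carried by the enzyme that icl-1 encodes, are the steps of the glyoxylate shunt. Icl-1 had 223.1 CPM in control LC6, 147.1 in control 14 and 164.3 in short-term dauer 14. The other starved libraries of batch 1 had 1399, 3396 and 3872 CPM (lowest, median and highest), those of batch 2 2200, 3193 and 3678, and the fed libraries 381.2, 492.1 and 838.6. All 3 libraries were below every fed and every other control or short-term dauer starved library. The log2 fold change was -4.18 against the other starved libraries.

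Of 24 measured genes of fatty acid oxidation other than acs-2, by which the libraries were chosen, 6 were below the range and 0 above it, with a median log2 fold change of -0.46. The 6 were hacd-1, fmo-2, the predicted enoyl-CoA hydratases ech-7 (-1.81) and ech-9 (-1.21), the thiolase kat-1 (-1.23) and the carnitine palmitoyltransferase homologue cpt-5 (-1.54), with log2 fold changes in parentheses. With acs-2, 15 of the 25 listed genes were higher in fed and 3 higher in starved larvae of batch 1, control LC6 included. Most of the list is thus not raised by fasting in these data. Of 13 genes of the glyoxylate shunt and gluconeogenesis, 7 were below and 0 above, with a median of -1.35. Besides icl-1 they were the citric acid cycle genes mdh-2, cts-1 and aco-2, the gluconeogenic genes pyc-1 (-1.42) and fbp-1 (-1.59), which encode pyruvate carboxylase and fructose bisphosphatase, and gpdh-2 (-1.25), which encodes a glycerol-3-phosphate dehydrogenase. In batch 1, control LC6 included, 2 of the 13 were higher in starved and 1 higher in fed larvae.

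Single genes of alcohol and acetate metabolism were also below the range, singled out after their values were seen. Their families as a whole were not, with 3 of 20 measured acs genes below and 0 above (median 0.00), and 3 of 14 adh and alh genes below and 0 above (median -0.34). Adh-1 (K12G11.3), an alcohol dehydrogenase gene, had 275.4, 183.0 and 237.1 CPM against 2110 to 5543 CPM in the 18 others and a fed median of 215.6, a log2 fold change of -4.21. Acs-19, which encodes an acetyl-CoA synthetase, had 97.9, 80.7 and 78.0 CPM against 284.6 to 834.1 CPM, a log2 fold change of -2.87. Acer-1 had 107.2, 74.0 and 87.7 CPM against 770.8 to 1864 CPM, a log2 fold change of -3.98. For acs-19 and acer-1 the low acs-2 libraries were below the whole fed range (194.8 CPM and 268.7 CPM at the lowest), whereas for adh-1 they fell within it.

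**Figure D1:**
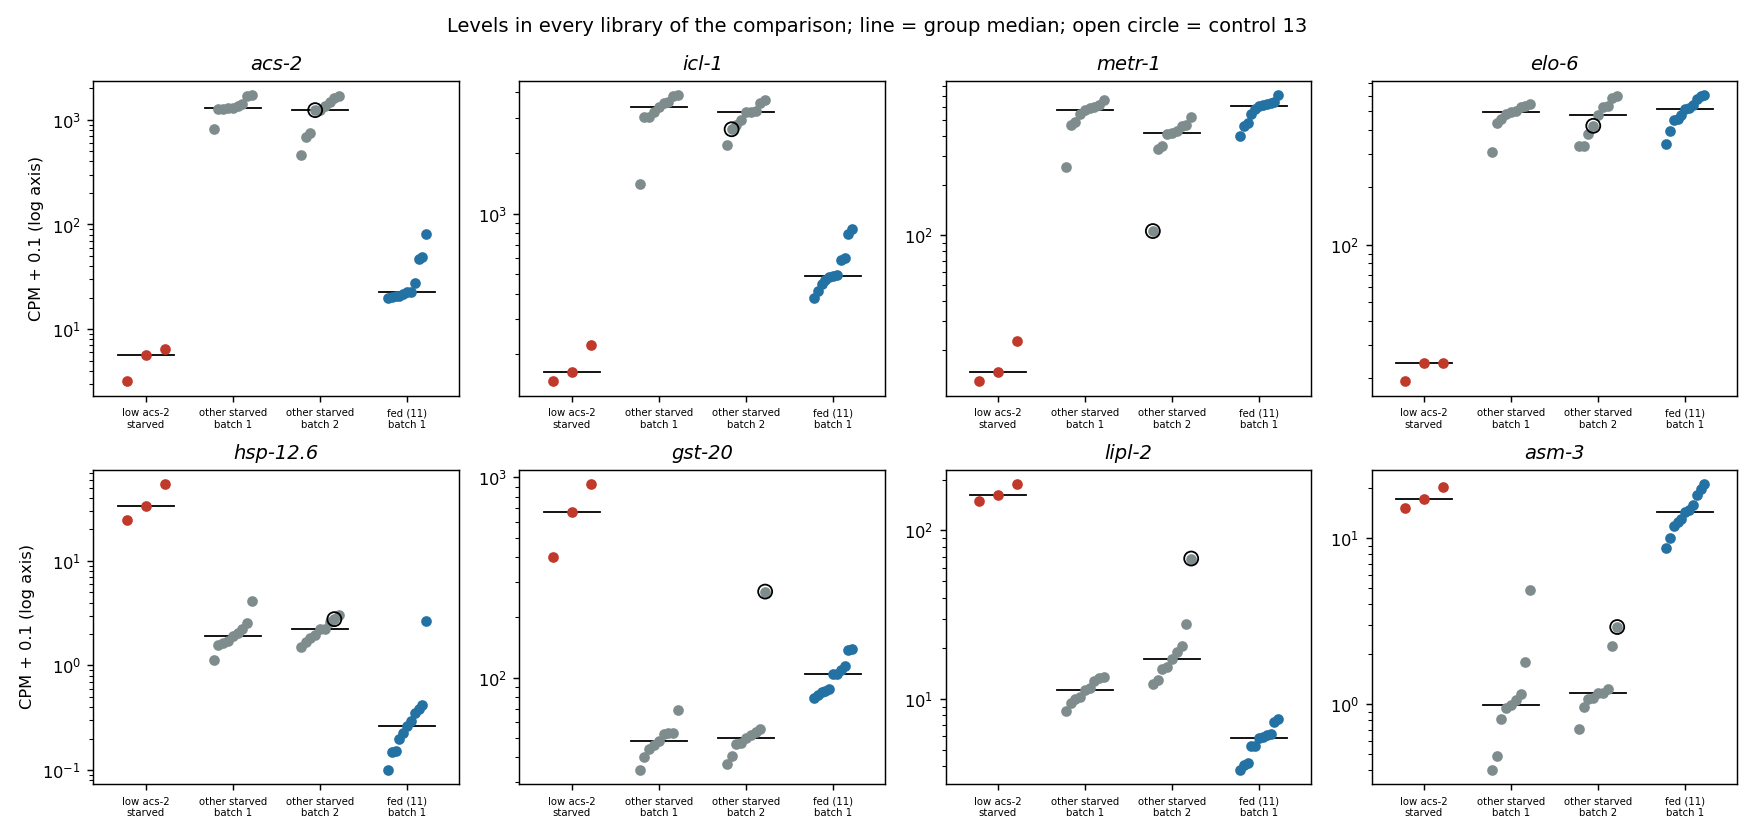
Levels of 8 genes as CPM plus 0.1, on a log axis, in the 3 low acs-2 starved libraries (red), the 9 other starved control and short-term dauer libraries of each batch (grey) and the 11 fed libraries (blue), 1 point a library, with the group median as a line. Acs-2, icl-1, metr-1 and elo-6 lie below every grey and blue point in the red group, hsp-12.6, gst-20 and lipl-2 lie above every grey and blue point, and asm-3 lies above the grey points and among the blue ones. The open circle is control 13 of batch 2, whose metr-1 is low and gst-20 and lipl-2 high while its acs-2 is within the grey group.

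A second group of low genes had fed levels close to or above the usual starved levels. Of the genes named here, metr-1, K08D8.3, oac-14, elo-6 and elo-5 were furthest down. Several others, with metr-1, serve the methionine cycle, in which methionine synthase uses vitamin B12 and methyl-folate to remake methionine. Metr-1, the methionine synthase gene, had 22.7 CPM in control LC6, 12.9 in control 14 and 14.8 in short-term dauer 14. The other starved libraries of batch 1 had 260.1, 570.1 and 655.6 CPM, those of batch 2 105.7, 418 and 516.9, and the fed libraries 401.2, 609.9 and 704. The 3 libraries were below all others, at a log2 fold change of -4.77, while fed and starved larvae of batch 1, control LC6 left out, differed in metr-1 by a log2 fold change of -0.01 ± 0.13 (SE), which did not pass edgeR's quasi-likelihood test (adjusted p = 0.966).

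On the broader list of propionate breakdown and the methionine cycle, 6 of 19 measured genes were below the range, 0 above and 13 neither, with a median of -0.60. The list summed to 8827, 7597 and 6283 CPM, inside the 3846 to 9126 CPM of the other starved libraries. Genes known in this worm to be raised together with metr-1 when the methionine cycle runs low, through the nuclear receptor NHR-114, were listed after the values were seen. Of the 8 measured, 6 were below the range and 0 above, with a median log2 fold change of -2.59. They were metr-1, mthf-1 (-3.61), which encodes the reductase that makes methyl-folate, the folate transporter gene folt-2 (-3.04), pmp-5 (-2.73), a transporter gene linked to vitamin B12, mtrr-1 (-2.46), the reductase that reactivates methionine synthase, and nhr-114 itself (-1.82). Mthf-1 had 38.9, 26.1 and 27.8 CPM against medians of 459.9 and 333.3 CPM in the other starved libraries of batches 1 and 2 and 532.6 in fed larvae. The 2 members not called were sams-1 and mel-32, at -1.24 and -0.58.

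Several genes of the propionate shunt, which breaks down propionate when vitamin B12 is scarce, were low too. Of its 5 enzyme genes and 2 receptor genes, also listed after the values were seen, 5 were below the range and 0 above, with a median of -1.63. Hphd-1 had 45.3, 39.9 and 44.97 CPM against 109.3 to 306.4 CPM in the others and 430.8 to 849.3 CPM in fed larvae, a log2 fold change of -2.40. Acdh-1, the acyl-CoA dehydrogenase gene often used as a sensor of vitamin B12 state, had 205.3, 165.4 and 192.2 CPM against 380.5 to 1024 CPM, at -1.95. Ech-6 (-1.95), hach-1 (-1.44) and the receptor gene nhr-68 (-1.63) were below too, and the receptor gene nhr-10 (0.20) was not outside the range. Alh-8, the most abundant enzyme gene of the list, went the other way, with 4591, 3754 and 2886 CPM against at most 2412 CPM in the others of batch 1 and 2031 CPM in those of batch 2, but at 0.92 it missed the fold required. Mmcm-1, the mutase of the vitamin B12-dependent route, was close to the others at -0.03.

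Synthesis of fatty acids showed a like picture, with 8 of 18 measured genes below the range, 0 above and a median of -1.01. The elongase genes elo-5 and elo-6, which make the branched-chain fatty acids that L1 larvae need for growth, were furthest down. Elo-6 had 24.0, 19.2 and 24.1 CPM against 306.6 to 601.1 CPM in the other starved and 336 to 606.6 CPM in the fed libraries, a log2 fold change of -4.44. Elo-5 had 7.62, 4.14 and 5.203 CPM against 53.99 to 121.5 CPM, at -4.05, and its fed level was higher still, 148.7 to 281.3 CPM. The others were the desaturase genes fat-5 (-3.62) and fat-3 (-1.06), the acetyl-CoA carboxylase gene pod-2 (-2.09), the elongase gene elo-2 (-1.79), the acyltransferase gene dgat-2 (-1.68) and the fatty acid synthase gene fasn-1 (-1.13). Fasn-1 and elo-2 were higher in fed than in starved larvae of batch 1, control LC6 left out, at log2 fold changes of 1.99 ± 0.13 and 1.36 ± 0.11 (SE), with edgeR adjusted p = 1.88e-11 and 6.65e-10.

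Within the mitochondrial part of central metabolism, single enzymes of the citric acid cycle were below the range, while no listed gene of the respiratory chain was. Mdh-2, the mitochondrial malate dehydrogenase gene, had 126.9, 130 and 137 CPM against 379 to 1036 CPM in the others, a log2 fold change of -2.62, and its fed range was 606.7 to 1093 CPM. Cts-1, the citrate synthase gene, was at -2.05 and aco-2, the aconitase gene, at -1.75. Of 34 nuclear genes of the respiratory chain, 0 were outside the range, where 3.07% of all measured genes were below it. Their median was nonetheless lower, at -0.35 against -0.07 over all measured genes. Idh-1, the gene of the cytosolic isocitrate dehydrogenase, was below it at -2.45.

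Genes above the range were led by hsp-12.6 and by enzymes of the lysosome and of detoxification. Hsp-12.6 encodes a small heat shock protein and is a known DAF-16 target. It had 54.3 CPM in control LC6, 33.4 in control 14 and 24.4 in short-term dauer 14. The 9 others of batch 1 had 1.03, 1.80 and 4.01 CPM, those of batch 2 1.42, 2.13 and 2.93, and the fed libraries 0, 0.164 and 2.55. The 3 libraries were above all of these, at a log2 fold change of 4.14, and farther from fed larvae than the usual starved larvae were. Small heat shock protein genes as a list did not follow hsp-12.6. Of 14 measured, 2 were above the range and 1 below (hsp-17, -1.09), with a median of -0.78.

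Of 17 measured DAF-16 target genes, 5 were above the range and 1 below, with a median log2 fold change of 0.81. Sod-3, the mitochondrial superoxide dismutase gene, had 26.6, 22.2 and 16.17 CPM against 2.24 to 7.64 CPM, at 2.22, and fed larvae had 0.0495 to 1.48 CPM. The metallothionein gene mtl-1 had 179.7, 134.7 and 115.1 CPM against 20.6 to 65.7 CPM, at 1.75. Hsp-12.3 (1.94) and nnt-1 (1.15) were the other members above, and the 1 below was icl-1. In batch 1, control LC6 included, 9 of these 17 genes were higher in starved and 1 higher in fed larvae. For hsp-12.6, the log2 fold change of fed against starved larvae was -4.09 with control LC6 and -2.55 without it. The genes of the regulators were near the other starved libraries, with log2 fold changes of 0.07 for nhr-49, 0.17 for daf-16 and -0.01 for hlh-30, none of them outside the range.

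Lysosomal lipases and their regulators split, with 1 of 12 measured genes above the range, 3 below and a median of -0.14. Lipl-2, a lysosomal lipase gene, had 150.1, 188.4 and 163 CPM against 8.34 to 68.04 CPM in the other starved libraries and 3.70 to 7.496 CPM in fed larvae, a log2 fold change of 3.20. Lipl-3 and lipl-4, lysosomal lipase genes that fasting is known to raise, were instead below the range at -2.06 and -3.17. Lipl-3 had 8.26, 7.503 and 5.95 CPM against 16.12 to 48.5 CPM, which was still far above the fed libraries at 0.145 to 0.585 CPM. Mxl-3, a gene for a repressor of lysosomal lipases in fed worms, was below both at 8.56, 8.46 and 6.69 CPM, against 18.2 to 100 CPM in starved and 67.02 to 173.7 CPM in fed libraries.

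Genes of lysosomal sphingolipid breakdown were listed after their values were seen. Of 9 measured genes, 5 were above the range and 0 below, with a median of 1.14. Asm-3, an acid sphingomyelinase gene, had 15.2, 20.2 and 17.1 CPM against 0.302 to 4.78 CPM in the other starved and 8.66 to 21.2 CPM in the fed libraries, a log2 fold change of 3.64. Asm-2 (1.81), the acid ceramidase gene asah-1 (1.80), its homologue asah-2 (1.14) and the glucocerebrosidase homologue gba-4 (1.66) were above too. Asah-1 had 472.6, 455.6 and 326.1 CPM, above the other starved libraries at 53.3 to 162.7 CPM and above the fed median of 109.3. Of 24 autophagy genes, 0 met the fold and lay outside the range, with a median of 0.20. Their summed CPM was nonetheless higher, at 3485, 3884 and 3408 against 1456 to 3224 in the other starved and 1620 to 2479 in the fed libraries.

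Gst-20, a glutathione S-transferase gene, had 926.7, 671.9 and 402.7 CPM, against 34.5 to 269 CPM in the other starved libraries and 79.0 to 139.3 CPM in fed larvae, a log2 fold change of 3.41. Over the gst family of 42 measured genes, 6 were above the range and 3 below. Gst-15 was at 2.54, gst-14 at 2.03 and gst-10 at 1.83. Spp-8, which encodes a saposin-like protein, had 1045, 908.5 and 845.3 CPM against 65.9 to 412.5 CPM, at 2.57, and spp-18 was at 2.20. These were the only 2 of 22 measured spp genes outside the range, and the family's median was 0.235. Cpr-2, a cathepsin B-like protease gene, had 123.7, 213.3 and 239.4 CPM against 12.05 to 115.3 CPM, at 2.49. Fed larvae had 0.368 to 0.798 CPM of it. Of 8 measured cpr genes, cpr-2 was the 1 above, and 2 were below, cpr-4 at -1.84 and cpr-8 at -1.68. Gdh-1, the glutamate dehydrogenase gene, reached 4681, 3632 and 3182 CPM against 622.5 to 1513 CPM, at 1.52.

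Enzyme families of detoxification did not all move the same way. Of 67 measured UDP-glucuronosyltransferase (ugt) genes, 18 were below the range and 2 above, with a median of -0.41. Of 73 cytochrome P450 (cyp) genes, 4 were below and 6 above, among them cyp-37B1, with 175.6, 207.7 and 181.1 CPM against 18.0 to 123.1 CPM. Of 233 genes of the nuclear receptor (nhr) family, which are not enzymes, 14 were below and 4 above, with a median of 0.04. Over all measured genes 3.07% were below and 1.86% above. These families were counted whole, after the values of single members had been seen.

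The remaining leading genes complete both ends of the range. Below it were C23G10.11 (-7.67), F46C5.1 (-7.39), the pseudogene F07C4.12 (-6.84), K08D8.3 (-4.76), C35C5.8 (-4.71), the acyltransferase homologue oac-14 (-4.64) and F21C10.10 (-4.57). Above it were F12A10.1 (3.06), lmd-4 (2.94), Y47D7A.12 (2.63), F40G12.5 (2.52) and txt-4 (2.50). Libraries were made with a nondirectional kit, so reads of overlapping or antisense genes, and of the pseudogene and its relatives, cannot be told apart.

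**Figure D2:**
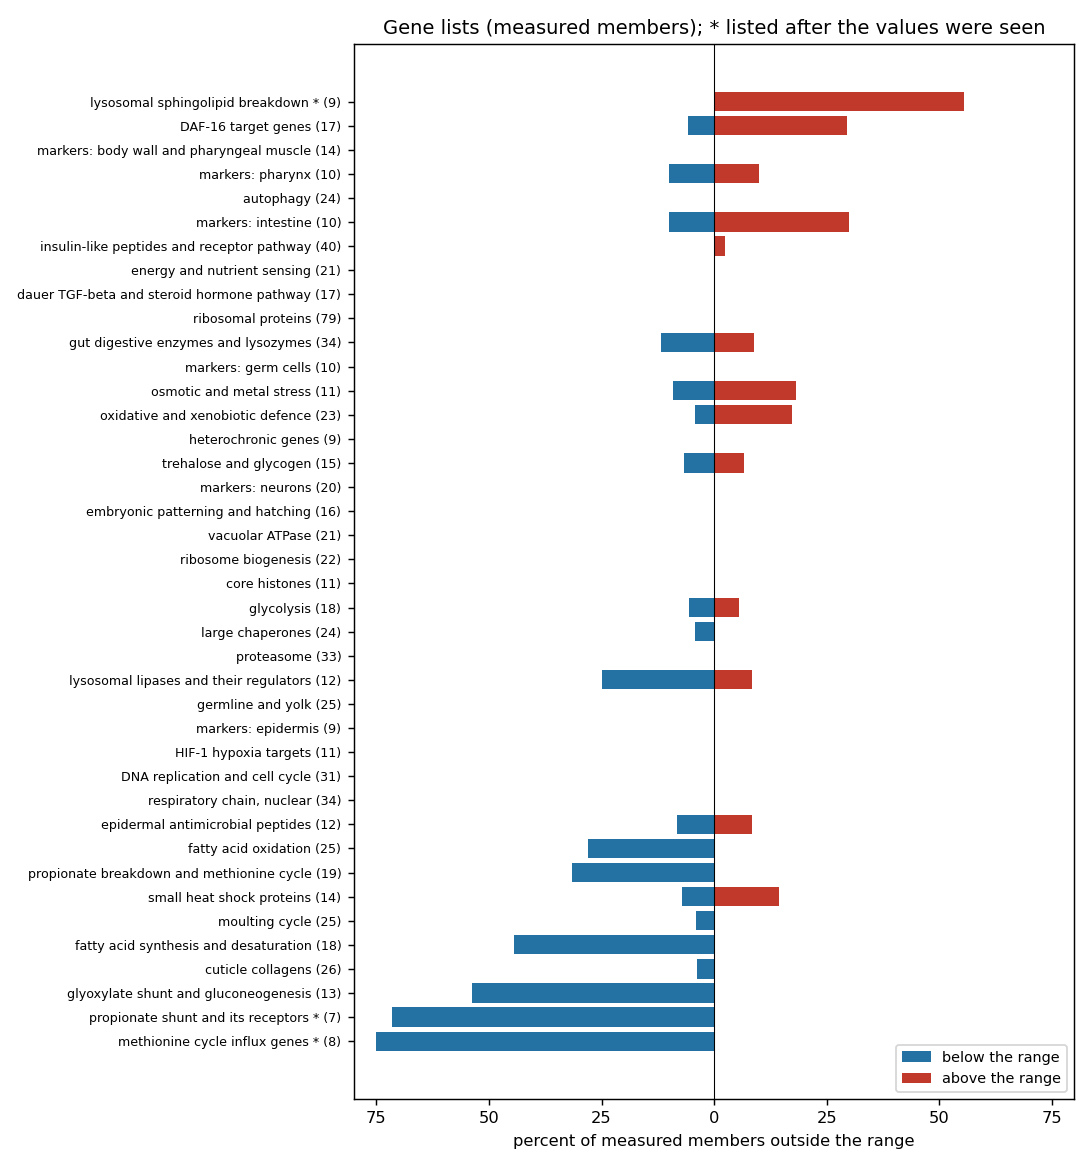
Percent of the measured members of each gene list that were below (blue, left) or above (red, right) the range of the other starved libraries in both batches, with the number measured in parentheses. Lists are ordered by their median log2 fold change, with the highest at the top, and a star marks lists made after the values were seen. Over all 17282 genes, 3.07% were below and 1.86% above.

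In large parts of the cell's machinery few or no genes met the fold and lay outside the range. Of 79 ribosomal protein genes, 33 proteasome genes, 31 genes of DNA replication and the cell cycle and 21 vacuolar ATPase genes, 0 were outside it. Over all measured genes 3.07% were below and 1.86% above, so a count of 0 in the shorter lists says little. Their median log2 fold changes were 0.07, -0.14, -0.33 and -0.06, in that order, against -0.07 over all measured genes. Cuticle collagens had 1 of 26 genes below (col-144, -1.197) and a median of -1.07, and moulting genes 1 of 25 (noah-1, -1.25) and a median of -0.87. The collagen list summed to 199.2, 190.2 and 158.1 CPM in the 3 libraries, 278.5 to 549.8 CPM in the 18 others and 5949 to 11910 CPM in fed larvae, so it was farther from the fed level than in the usual starved larvae. The moulting list summed to 275.5, 287.9 and 293 CPM, inside the 261 to 579.3 CPM of the others.

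Sums of tissue markers were mostly high in the low acs-2 libraries, but the typical marker moved little. Median log2 fold changes were 0.16 for intestine, 0.31 for muscle, -0.03 for neurons, -0.19 for epidermis, 0.265 for pharynx and 0.04 for germ cells. Over all measured genes the median was -0.07. The 11 listed intestinal markers summed to 9751, 11970 and 9723 CPM in the low acs-2 libraries, against 2365 to 6895 CPM in the others. The fed range of this sum was 6929 to 11020 CPM. Of the 10 measured in the fit, 3 were above the range (ifb-2, asp-1 and mtl-2). The 1 below was act-5, which encodes the actin of the intestinal brush border. Of the intestinal sums in the low acs-2 libraries, asp-1 gave 5870, 8458 and 6628 CPM and ifb-2 2360, 1852 and 1622 CPM. Muscle markers summed to 32640, 26620 and 22450 CPM against 7663 to 22510 CPM, neuronal markers to 4915, 5191 and 4439 CPM against 1992 to 4632 CPM, and epidermal markers to 718.8, 695.5 and 608.7 CPM against 270 to 553.8 CPM, each with 0 members outside the range. Pharyngeal markers summed to 8290, 6813 and 6559 CPM against 2222 to 6516 CPM, with 1 of 10 above (phat-5) and 1 below (phat-2), and germ cell markers to 219.8, 204.6 and 217.1 CPM against 156.3 to 226.5 CPM. Of the list members, 1 intestinal, 1 muscle, 1 epidermal, 2 pharyngeal, 1 germ cell and 0 neuronal genes were under 1 CPM in all 3 libraries. In whole larvae, fewer cells of a type and less RNA per cell cannot be told apart, and the part of these markers in the result was not tested.

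The relation to the fed state was taken from batch 1, where 8 fed and 10 starved libraries of control and short-term dauer descent were compared with edgeR's quasi-likelihood test, ancestry as a term. Control LC6 is 1 of these 10 starved libraries. Values without it are given for the batch 2 comparison and for single genes, but class counts of gene lists include it. At an adjusted p under 0.05 and a log2 fold change of at least 1, 2699 of 18524 genes (14.6%) were higher in fed and 4471 (24.1%) higher in starved larvae, against a median log2 fold change of -0.25 over all genes. The smallest number higher in starved, 3338, came without short-term dauer LC14. These classes share no library with batch 2, so the libraries numbered 14 were set against them. That comparison was not repeated with classes made without short-term dauer LC14.

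In batch 2 alone, with 2 libraries against 9, 577 of 14936 genes (3.86%) were below the range and 347 (2.32%) above. Of the 577 below, 170 (29.5%) were genes higher in starved larvae, 170 (29.5%) were genes higher in fed larvae and 237 (41.1%) were in neither class. Of the 347 above, 197 (56.8%) were higher in starved, 43 (12.4%) higher in fed and 107 (30.8%) in neither. Seen from the classes, 7.51% of genes higher in fed were below and 1.90% above, and 5.86% of genes higher in starved were below and 6.8% above. The median log2 difference was -0.26 over genes higher in fed, 0.19 over genes higher in starved and 0.00 over the rest. With control LC6 left out of the classes, the medians were -0.23 over genes higher in fed and 0.17 over genes higher in starved, and 176 of the 347 genes above (50.7%) and 169 of the 577 below (29.3%) were genes higher in starved. Genes higher in starved larvae, acs-2 and icl-1 on the low side and cpr-2 and hsp-12.6 on the high side, were thus found at both ends.

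**Figure D3:**
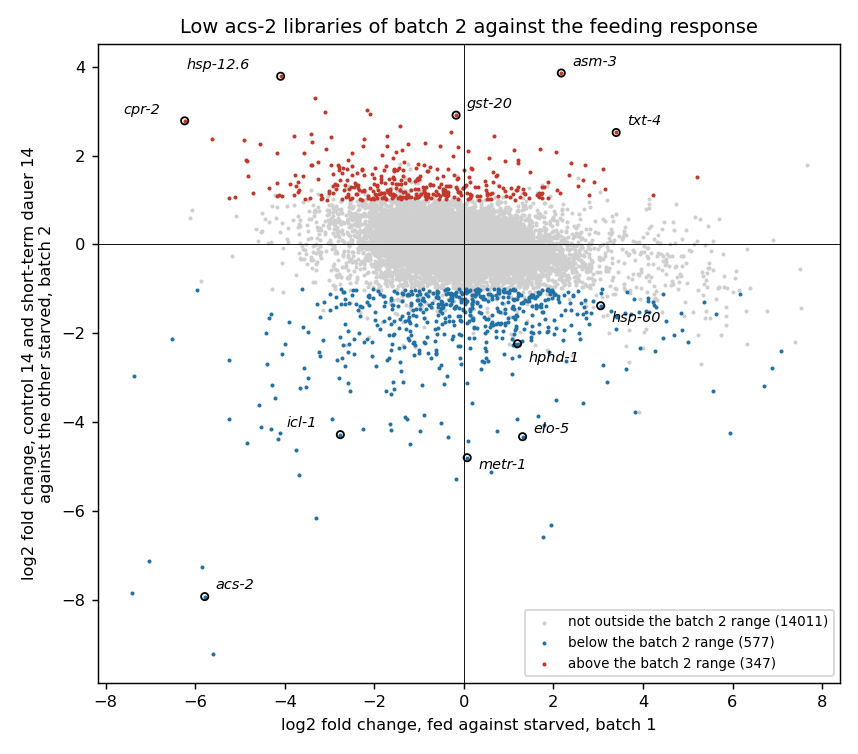
Each point is a gene, with the log2 fold change of fed against starved larvae of batch 1 on the x axis and that of control 14 and short-term dauer 14 against the 9 other starved libraries of batch 2 on the y axis. Red points are the 347 genes above and blue points the 577 genes below the batch 2 range. Genes below the range lie on both sides of 0 on the x axis, acs-2 and icl-1 on the starved side, elo-5 and hphd-1 on the fed side and metr-1 near 0.

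For control LC6 the fed and starved classes came from the long-term dauer libraries of batch 1, which were not used in its comparison. With all 6 of these libraries 0 of 15923 genes passed edgeR's test (2643 at an unadjusted p under 0.05). Without long-term dauer LC4_49d, labelled starved, 2829 genes were higher in fed and 2892 higher in starved larvae. Over the classes without it, the median log2 difference of control LC6 from its batch was -0.29 over genes higher in fed, -0.16 over genes higher in starved and 0.01 over the rest. Against the short-term dauer library of the same number alone, in log2 CPM without a fit, the median over genes higher in starved was 0.13. Reference and measure changed together here, so what turned the direction cannot be told.

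Gene by gene, control LC6 was set against the fed range. Over all 17282 genes it was above all 8 fed control and short-term dauer libraries in 32.7% and below them in 37.4%, against medians of 30.8% and 38.6% in the 9 other starved libraries of batch 1. Of the 530 genes below the starved range, which were chosen for a low level in it, control LC6 was below all 8 in 382 (72.1%), within them in 101 and above them in 47. Of the 321 genes above the starved range, it was above all 8 in 267 (83.2%), within them in 32 and below them in 22. Pearson's r of its log2 profile over 17202 genes was 0.971 at the median with the other starved libraries of batch 1 and 0.873 with the fed libraries, against 0.989 among the other starved libraries and 0.904 between those and the fed libraries. These are correlations across genes that share abundance and length, and genes are not independent replicates.

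A contrast is given by long-term dauer LC4_49d starved of batch 1, which also had acs-2 below 50 CPM, at 18.0, but is of an ancestry outside the rule. Its metr-1 was 486.8 CPM, its elo-6 509.4 CPM and its hsp-12.6 0.349 CPM, all inside the fed ranges and far from the 3 low acs-2 libraries. Its icl-1, at 360.7 CPM, was just below the lowest fed library. Its T22F3.11 (6.02 CPM), noah-1 (771.6 CPM) and hsp-60 (918.4 CPM) were at fed levels too, so this library, labelled starved, goes against its label in these genes and is not counted here as a usual starved library.

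The lists of the 2 batches overlapped in part. Over 14929 genes with a value in both, the difference of control LC6 and that of the libraries numbered 14, which share no library, had a Pearson's r of 0.599 across genes. Taken alone, control LC6 was outside the batch 1 range in 624 genes above and 2144 below. Of these, 224 genes were also above in batch 2 and 395 also below, and 10 were above in one and below in the other. The 224 made up 35.9% of the batch 1 list and 64.6% of the batch 2 list of genes above. The 395 made up 18.4% and 68.5% of the lists of genes below. Over all genes measured in batch 2, 2.32% were above and 3.86% below. Across the long-term dauer classes, control LC6 was above its range in 2.82% to 7.65% of genes and below it in 7.77% to 20.3%. All 3 libraries were chosen by low acs-2, so the overlap is a description. Short-term dauer LC6, the starved library with the same number, had 1714 CPM of acs-2, 539.9 of metr-1 and 1.61 of hsp-12.6, all within the usual range, whereas both libraries numbered 14 in batch 2 were low.

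**Figure D4:**
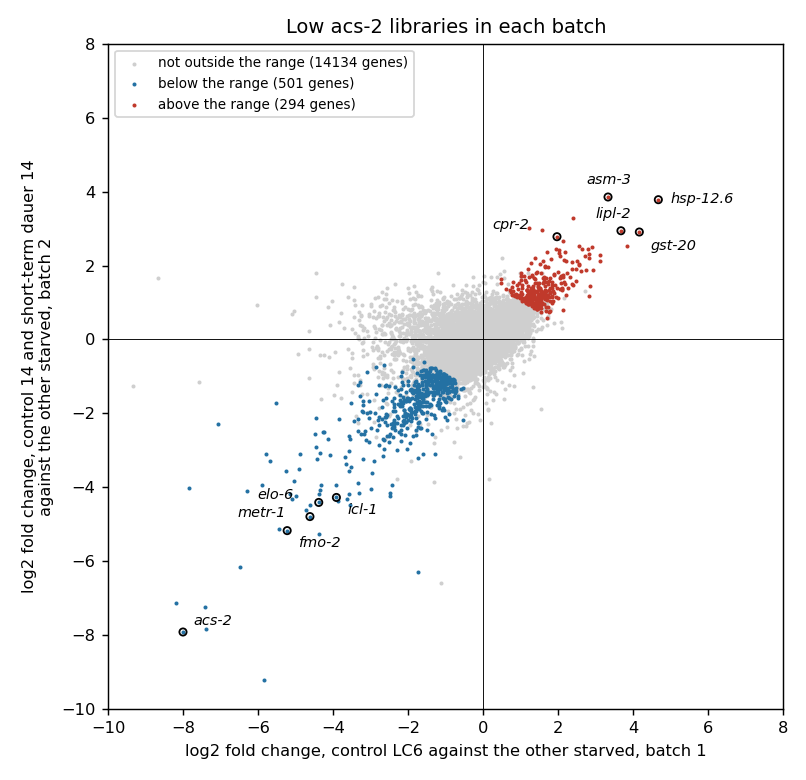
Log2 fold change of control LC6 against the 9 other starved libraries of batch 1 (x axis) and of control 14 and short-term dauer 14 against the 9 of batch 2 (y axis) over 14929 genes, 1 point a gene. Blue genes were below and red genes above the range in both batches, which the choice of colour fixes. The grey cloud extends farther to negative values on the x axis, where 1 library was compared, than on the y axis.

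The 18 other starved libraries were not uniform either. In acs-2 they followed the number in the label within batch 2, across ancestries. Control 2 had 464.3 CPM and long-term dauer 2 had 523.4. Control 4_10, short-term dauer 10 and long-term dauer 4 had 746.4, 678.5 and 324.4 CPM, while the libraries numbered 6, 7, 13 and 16 lay between 1215 and 1702 CPM. The labels do not say what a number stands for, and with these few libraries the pattern was not tested. The genes whose CPM followed acs-2 most closely over the 18 libraries, of 8156 genes compared, were hacd-1 (Pearson's r 0.973), acs-19 (0.970), acer-1 (0.926), F15D3.6 (0.925) and nhr-21 (0.924). All 5 were below the range in the low acs-2 libraries. At the other end were C18D1.2 (-0.742), F42A10.7 (-0.730), qua-1 (-0.719), F55H12.2 (-0.684) and osm-5 (-0.682), of which C18D1.2 alone was outside the range, and on the low side. The 18 points share 2 batches and the numbers just described.

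Control 13 of batch 2 was the one library part of the way to the low acs-2 profile, and it was so without low acs-2. It had 1238 CPM of acs-2 and 2627 of icl-1. Its gst-20 was 269 CPM, against at most 55.5 CPM in the other control starved libraries of batch 2 outside the rule, its lipl-2 68.04 CPM, its spp-8 412.5 CPM and its cpr-2 115.3 CPM, each the highest of the 18. Its metr-1, at 105.7 CPM, and fmo-2, at 4.01 CPM, were the lowest of the 18. Over the 321 genes above the range, control 13 was the highest of the 9 other batch 2 libraries in 223 (69.5%), and over the 530 below it was the lowest in 225 (42.5%), against 24.2% and 17.6% of all measured genes.

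In medians, control 13 was 0.56 above the other starved libraries of its batch over the 321 genes and 0.33 below them over the 530 (log2 scale). The same values in the 3 low acs-2 libraries, by which those genes were chosen, were 1.101 to 1.51 above and 1.24 to 1.32 below. Every other starved library of batch 2, long-term dauer included, lay between -0.12 and 0.00 over the genes above the range and between -0.04 and 0.13 over the genes below it. Short-term dauer 13, of the same number, was at -0.06 and 0.13. Short-term dauer LC14 was lower over both sets (-0.25 and -0.29), as it was over all genes (-0.25), and long-term dauer LC4_49d was at -0.53 and 0.02.

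**Figure D5:**
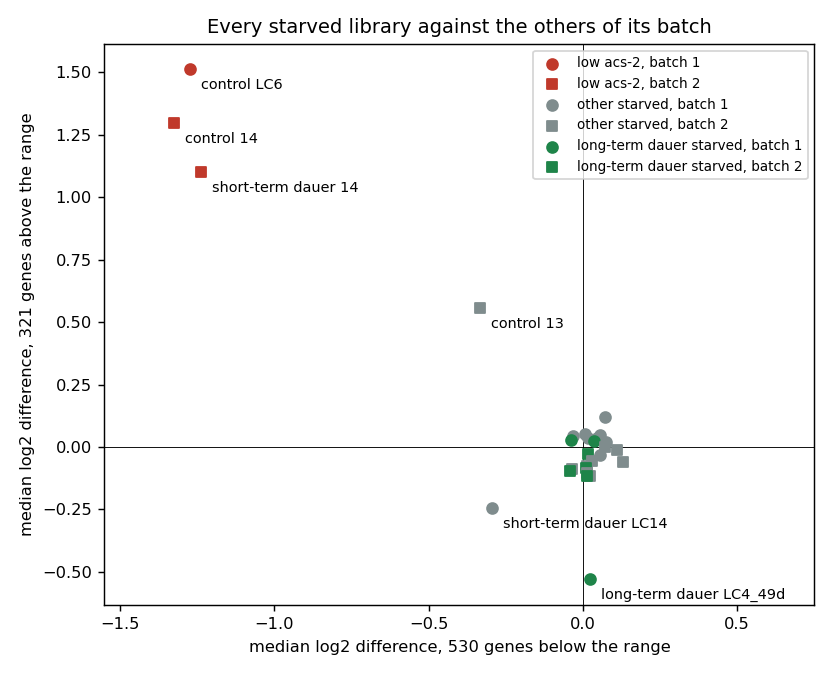
Median log2 difference of each starved library from the other starved libraries of its batch over the 530 genes below the range (x axis) and the 321 genes above it (y axis). The 3 low acs-2 libraries (red) stand apart by construction, control 13 lies between them and the rest, and the other long-term dauer libraries (green), which took no part in choosing the genes, lie near 0 except long-term dauer LC4_49d.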

How the data were processed

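Polyadenylated RNA of 39 libraries was measured. Each library has 1 deposited table of raw counts by gene, which the authors made with Bowtie 1.1.2 and HTSeq, with edgeR also named, per the submitters' processing notes. The genome build is not given in the sources used here, so names and chromosomes alone were taken from Ensembl release 115, which matched 44440 of 44968 features. The 5 summary rows of each file, 20.4% to 31.4% of its reads, were left out of library sizes and tests.

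CPM values were computed here with TMM factors over all 39 libraries. Fits used edgeR 4.0.16 in R 4.3.3, with filterByExpr and quasi-likelihood tests with Benjamini-Hochberg adjustment for fed against starved larvae. A standard error is the log2 fold change divided by the root of the F statistic. The low acs-2 libraries were described by edgeR coefficients and ranges, with no p-value, since a measured level chose them. The libraries, gene lists and rules were chosen with earlier results of these data known. Genes named are the 12 largest differences in each direction outside the range (mean of 10 CPM or more where higher), the 3 marker genes, up to 4 genes outside the range per list, and the 5 most and least like acs-2. Others, and the starred lists, were chosen after their values were seen. Steps were tested on simulated counts. Alternatives were other size factors (DESeq2 1.42.0), no filter, ancestry as a term, a stricter fold, single batches and leaving out each library. P-values measure the spread between these libraries only.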

Additional observations from a re-analysis of the deposited data

Results flagged for a closer look

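Over 25 leading genes and 150 groups of 4 to 10 libraries (the low acs-2 libraries left out), 14 values stood apart from their group by Dixon's criterion on the log2 scale. Chance flags about 1 in 20 groups.

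Control 13 of batch 2 held 7 of the 14. Its metr-1 was 105.7 CPM (next lowest of its group 332) and its K08D8.3 11.6 CPM (27.02). Its gst-20 was 269 CPM (next highest 55.5), its F12A10.1 9.21 CPM (2.07), its spp-8 412.5 CPM (191.6), its gst-15 28.8 CPM (14.03) and its cpr-2 115.3 CPM (26.97). All 7 lay toward the low acs-2 libraries.

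Short-term dauer LC14 starved of batch 1, whose values were low in most genes, held 3. They were icl-1 at 1399 CPM (next lowest 3534), metr-1 at 260.1 CPM (539.9) and K08D8.3 at 24.8 CPM (45.3).

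Among the fed libraries, control LC12 held 3, with metr-1 at 401.2 CPM (next lowest 612.7), K08D8.3 at 27.8 CPM (41.3) and F40G12.5 at 6.46 CPM (next highest 1.01). Short-term dauer LC12 fed had hacd-1 at 36.8 CPM (34.3).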

How the results depend on the processing

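Counts of genes outside the range were 321 above and 530 below, and stayed within 1.5 times of these under DESeq2 size factors, no filter, ancestry as a term and centring each batch. With a log2 fold change of at least 2 they were 48 and 188, and in batch 1 alone, with 1 library, 624 and 2144. Leaving out 1 library gave 320 to 475 above and 504 to 969 below, the 969 without short-term dauer 14, and 493 of the 530 were among them. DESeq2 size factors moved the median of all genes from -0.07 to -0.03. The fed and starved counts (2699 and 4471) ranged from 2654 to 2932 and from 3338 to 5146 without 1 library. With the LC number as a replicate block they were 2710 and 4927. Deviations of same-numbered libraries from their group means correlated at r -0.324 to 0.254 over 21 pairs, 16 of them at most 0.1. Pairs of unlike number were not set beside these, so whether a number marks a shared culture cannot be told. In batch 2, medians without short-term dauer 14 were -0.314 over fed-high and 0.125 over starved-high genes, and without control 14 -0.247 and 0.200. For control LC6, classes could be had only without long-term dauer LC4_49d. Setting it against short-term dauer LC6 alone, in log2 CPM without a fit, gave -0.147 and 0.128 in place of -0.285 and -0.156. The latter turned direction. The cause was not tested. Of 650 named-gene fold changes under alternatives, 632 moved by less than the spread between libraries, 18 by more and 0 changed sign. Genes under a few CPM in the low acs-2 libraries, such as C23G10.11 (10 counts over the 3), have imprecise folds.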
